A study of Mus musculus with 6 samples.

Results

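The genes described here are those of the KEGG pathway cytokine-cytokine receptor interaction, without the genes that also carry the insulin signaling annotation and without 8 genes excluded by name, of which 6 (*Ccl6*, *Ccl8*, *Ccl9*, *Ccl11*, *Csf1r*, and *Ngfr*) were found among the annotated genes. Of the 4864 genes analysed, 81 carry the annotation and 75 remained. Other genes of the pathway, and of the lists of marker and signaling genes used here, were not analysed here. By their known roles, 37 encode ligands and 38 encode receptors. The libraries are RNA-seq of cultures of wild-type adipose-derived stem cells (ADSCs) after adipocyte differentiation, which the study calls differentiated adipocytes. ADSCs are precursors isolated from the subcutaneous adipose tissue of male C57BL/6J mice. The 3 vehicle libraries (Control in the labels) and the 3 NJT-2 libraries come from cells kept in the same differentiation medium with dexamethasone, insulin, 3-isobutyl-1-methylxanthine, indomethacin, and triiodothyronine, and NJT-2, a natural compound studied as a ligand of the nuclear receptor PPARγ, was the only agent that differed. The study harvested mature adipocytes on differentiation day 8 and used the compounds at 200 nM in this cell model, without a separate statement for the sequenced cells. The ages of the mice are not given in the sources used here, and the labels do not say whether replicates were separate isolations of ADSCs, so p-values measure the spread between these libraries, which may be technical.

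Cytokines are small secreted or membrane-bound proteins that carry signals between cells. A ligand is read by cells that carry its receptor, and receptors of the hematopoietin and interferon families signal through Janus kinases and STAT proteins, those of the tumor necrosis factor and interleukin-1 families largely through NF-κB, and those of the TGF-β family through SMAD proteins. In adipose tissue, preadipocytes, adipocytes, and resident immune cells all produce cytokines, and these signals are known to influence macrophage recruitment and the formation of adipocytes.

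Levels are given as FPKM, the read count of a gene scaled by its length and by the total of the library. Differences are log2 fold changes of NJT-2 over vehicle, written with their standard errors (SE) and fitted by the quasi-likelihood test of edgeR to the counts of the 3705 genes whose FPKM averaged 0.5 or more. A gene was called where the p adjusted by Benjamini-Hochberg fell under 0.05 and the level changed more than 2-fold either way. Each library held between 16093037 and 28929673 counts on the 4864 genes analysed. Some tested members had few counts in a library (*Prlr* 4 in vehicle replicate 1), so that counting error adds to the spread between replicates, which was wide (biological coefficient of variation 0.504 in common over genes). A library in each group stood apart. By the Euclidean distance of log2(FPKM + 1) values, vehicle replicates 2 and 3 were 27.7 apart, while vehicle replicate 1 was 53.8 from the former and 71.3 from the latter. NJT-2 replicates 1 and 3 were 11.8 apart, while NJT-2 replicate 2 was 58.0 and 55.3 from them. For many of the named differences, the value without these libraries is given as well.

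Of the 75 cytokine and receptor genes, 40 passed the filter, 18 of them ligands and 22 receptors. Of these, 37 averaged at least 0.5 in both groups, while *Prlr* and *Gdf9* did so only with NJT-2 and *Ccl4* only with vehicle. None was called by edgeR, against 0.702% of all tested genes. At an unadjusted p under 0.05 there were 9, of which 8 were lower and 1 was higher with NJT-2, where 17.8% of all tested genes passed and 9.72% passed as lower. DESeq2 on the same counts called 5 (*Cxcl16*, *Cxcl14*, *Fas*, *Ifnar2*, and *Prlr*), against 7.8% of all genes. It gave no adjusted p for *Ccl3*, *Csf2*, and *Il11*, so it could not call these. In simulated counts with the spread of these libraries, edgeR recovered 72 of 200 genes that had been shifted by 2 on the log2 scale, so a change of that size could be missed here. The FPKM values of the groups did not overlap for 11 of the 40 members, close to the background of 25.9% of all tested genes. Both criteria together, an unadjusted p under 0.05 and no overlap, were met by 8 members (14.8% of all tested genes), and 7 of these were lower with NJT-2, where 7.88% of all tested genes were lower by the same criteria. The 7 were the ligand genes *Cxcl16*, *Cxcl14*, *Tslp*, and *Gdf11* and the receptor genes *Fas*, *Acvrl1*, and *Ifngr2*, and the member that was higher was the receptor gene *Prlr*. Without NJT-2 replicate 2, 3 members (*Tslp*, *Acvrl1*, and *Prlr*) were called, against 2.02% of all genes. Without both vehicle replicate 1 and NJT-2 replicate 2, a setting chosen after seeing the data, 15 of the 40 were called, 12 lower and 3 higher, against 13.0% of all genes.

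**Figure D1:**
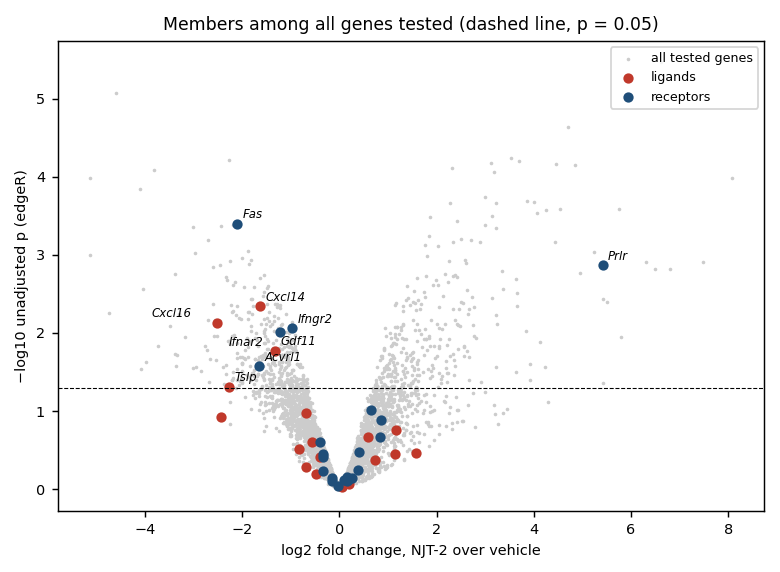
Each point is a tested gene, with its log2 fold change (NJT-2 over vehicle) on the x axis and the −log10 of its unadjusted p from edgeR on the y axis. Of the 40 members (18 ligands in red, 22 receptors in blue), 9 lie above the dashed line, drawn at 0.05, and *Prlr* is the 1 among them to the right of 0.

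Adipocyte, macrophage, and lymphocyte marker genes were higher with NJT-2 in their summed level, without overlap between the groups, the lymphocyte genes at levels near 0, while the sums of the preadipocyte and fibroblast, endothelial, and mast cell genes overlapped. Summed over the 5 of 9 adipocyte marker genes analysed, the FPKM ranged from 6.37 to 13.84 with vehicle and from 266.8 to 667.0 with NJT-2. The sum was lowest of the NJT-2 libraries in NJT-2 replicate 2, and 4 of the 5 were called higher by edgeR. *Adipoq* was at 0.38 to 0.50 with vehicle and 22.04 to 64.63 with NJT-2. *Pparg*, which was not called, was at 1.06 to 6.41 and 13.01 to 37.26. The groups compared were thus not alike in adipocyte marker level, which was low with vehicle. The 4 of 10 preadipocyte and fibroblast genes summed to between 170.5 and 910.8 with vehicle and between 411.4 and 452.0 with NJT-2. *Col1a1* held most of each sum. All 4 had a lower fitted level with NJT-2, and *Pi16* was called lower. The log2 fold changes of *Dcn*, *Cd34*, and *Col1a1* were -1.845, -0.42, and -0.21 (adjusted p = 0.195, 0.614, and 0.819 by edgeR). Macrophage genes (7 of 16 analysed, 5 tested, 1 called) summed to between 10.03 and 13.09 with vehicle and between 32.19 and 62.58 with NJT-2. Of their defining markers, *Adgre1* was at 0.88 to 2.15 with vehicle and 6.97 to 22.94 with NJT-2, while *Cd163* was at or near 0 (at most 0.09). *Csf1r*, used here as a marker only, was at 2.52 to 3.69 with vehicle and 3.05 to 4.56 with NJT-2, with overlap. Its log2 fold change was 0.025 (adjusted p = 0.974 by edgeR). The lymphocyte genes, *Cd4* among them, summed to at most 0.05 with vehicle against 0.55, 0.16, and 0.60 with NJT-2. The mast cell genes summed to at most 0.29. Their part in the differences of cytokine and receptor genes was not tested, and in these bulk libraries fewer cells of a type and less RNA per cell cannot be told apart.

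Promoter sequences from RefSeq (GRCm38.p6, 250 bases before to 50 after the annotated start) were found for 55 of the 75 members. They are shown for *Fas* and *Cxcl14*, the receptor and the ligand with the smallest p, and for *Cxcl13* and *Il11*, ligands that stood far below and far above the other NJT-2 libraries in NJT-2 replicate 2 (values with each gene). Capitals mark each match to the motifs searched on both strands, AP-1 (TGANTCA), the TATA box (TATAAA), and AGGTCA. The last is a half-site of nuclear receptor elements, not a whole element, and reads TGACCT on the other strand. Sequences are written 5′ to 3′ on the strand of the gene, on the plus strand at chr19:34290409-34290708 for *Fas* and chr5:95956689-95956988 for *Cxcl13*, and on the minus strand at chr13:56296502-56296801 for *Cxcl14* and chr7:4782808-4783107 for *Il11*.
Fas: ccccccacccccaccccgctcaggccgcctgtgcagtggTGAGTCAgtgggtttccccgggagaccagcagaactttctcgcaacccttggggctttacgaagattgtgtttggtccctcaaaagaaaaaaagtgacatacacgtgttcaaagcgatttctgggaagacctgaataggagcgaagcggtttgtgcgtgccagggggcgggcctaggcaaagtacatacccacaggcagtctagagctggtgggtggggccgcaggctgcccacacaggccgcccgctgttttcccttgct
Cxcl14: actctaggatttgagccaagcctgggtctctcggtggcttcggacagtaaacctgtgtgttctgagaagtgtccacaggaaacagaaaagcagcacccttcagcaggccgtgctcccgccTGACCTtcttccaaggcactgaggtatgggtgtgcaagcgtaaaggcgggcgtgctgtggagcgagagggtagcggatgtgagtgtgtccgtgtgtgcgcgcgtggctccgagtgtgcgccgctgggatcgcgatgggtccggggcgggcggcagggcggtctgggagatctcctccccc
Cxcl13: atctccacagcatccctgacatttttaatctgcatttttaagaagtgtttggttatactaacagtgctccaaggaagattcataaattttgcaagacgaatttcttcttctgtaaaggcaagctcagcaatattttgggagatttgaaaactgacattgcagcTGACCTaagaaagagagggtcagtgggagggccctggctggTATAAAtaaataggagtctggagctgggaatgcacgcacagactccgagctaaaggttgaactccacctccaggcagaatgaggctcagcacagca
Il11: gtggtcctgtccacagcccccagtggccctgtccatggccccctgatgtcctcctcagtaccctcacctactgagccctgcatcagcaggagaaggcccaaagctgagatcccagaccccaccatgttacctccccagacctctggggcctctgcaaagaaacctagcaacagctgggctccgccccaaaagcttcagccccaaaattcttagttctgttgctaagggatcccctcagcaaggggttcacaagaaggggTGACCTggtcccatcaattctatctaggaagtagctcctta
The match in *Fas* starts at -211 from the annotated start, that in *Cxcl14* at -130, those in *Cxcl13* at -87 and -46, and that in *Il11* at 9 bases into the transcript. AP-1 was found in 7 of the 55 members' promoters and in 7.81% of all 32851 mouse promoters of this length in the table, TATAAA in 9 and in 13.6%, AGGTCA in 6 and in 16.3%, and the NF-κB consensus in 5 and in 4.51%. Of the 6 members with a promoter that were higher in NJT-2 replicate 2, none held the NF-κB consensus in this window. None of these 6 held TATAAA, 1 held AP-1, and 2 held AGGTCA. Of the 5 with a promoter that were lower in it, 3 held TATAAA, 1 held AGGTCA, and none held AP-1 or the NF-κB consensus. These counts are small and were not tested. A match is a description of the letters and not evidence of a bound site.

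The median lay lower for the ligands than for the receptors, which is a description without a test. Of the 18 tested ligand genes, 7 were higher and 11 lower with NJT-2. Their log2 fold changes had a median of -0.526, where that of all tested genes was 0.02. Of the 22 receptor genes, 11 were higher and 11 lower, with a median of 0.0285. Without NJT-2 replicate 2, the medians were -0.947 for the ligands and -0.351 for the receptors. Summed over all ligand members, the FPKM was 449.99, 757.65, and 797.06 with vehicle and 503.88, 403.47, and 549.02 with NJT-2 (replicates 1, 2, and 3 in order, as for all values by library), and the groups overlapped through vehicle replicate 1. A single gene made up much of each sum. *Cxcl14* held 40.2% of it in vehicle replicate 1, *Cxcl13* held 39.6% in NJT-2 replicate 1, and *Csf1* held between 42.3% and 66.2% in the other 4 libraries. The receptor members summed to 258.58, 472.11, and 533.53 with vehicle and to 309.6, 466.36, and 386.09 with NJT-2, and here the group ranges overlapped as well. Vehicle replicate 1 had the lowest FPKM of all 6 libraries for 15 of the 22 receptor genes. It was the lowest for 9 of the 22 when counts were scaled by the trimmed mean of M values (TMM). This standing of the library thus depends in part on the scale. TMM gave vehicle replicate 1 a factor of 0.77, against 0.967 to 1.11 in the other libraries. The overlap of the sums above holds for FPKM and was not examined on TMM-scaled counts.

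The CXC chemokine genes held the ligands of smallest p. *Cxcl14* (ENSMUSG00000021508), which encodes a chemokine expressed in skin and adipose tissue, lies on chromosome 13 of GRCm38 (chr13:56288643-56296551). Its FPKM was 180.75, 192.46, and 161.30 with vehicle against 48.67, 53.48, and 100.23 with NJT-2, without overlap. The log2 fold change was -1.63 (SE 0.41, 3.10-fold lower, unadjusted p = 0.00457, adjusted p = 0.134 by edgeR). DESeq2 called it at an adjusted p of 0.00582, the lowest in a range up to 0.442 over the alternatives. *Cxcl16* (ENSMUSG00000018920, chr11:70453983-70459984), a membrane-bound chemokine that binds the receptor Cxcr6 and also acts as a scavenger receptor for oxidized lipoprotein, had 33.07, 28.37, and 18.20 FPKM with vehicle and 3.45, 10.44, and 2.36 with NJT-2. Every NJT-2 library lay below every vehicle library, and NJT-2 replicate 2 was the nearest to them. The log2 fold change of *Cxcl16* was -2.52 (SE 0.70, 5.74-fold lower, unadjusted p = 0.0074, adjusted p = 0.164 by edgeR), and -3.50 without NJT-2 replicate 2 (adjusted p = 0.0533). It was called by DESeq2 (adjusted p = 0.00766) in a range from 0.00533 to 0.442 over the alternatives.

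*Cxcl13*, the chemokine that draws B cells through Cxcr5, was split within the NJT-2 group. It had 27.11, 59.09, and 47.95 FPKM with vehicle and 199.35, 12.94, and 124.52 with NJT-2, so NJT-2 replicates 1 and 3 lay above every vehicle library and NJT-2 replicate 2 below every one. Its log2 fold change was 1.17 (SE 0.78, adjusted p = 0.403 by edgeR) with all libraries, and 1.69 without NJT-2 replicate 2 (adjusted p = 0.0667). It was 0.46 without NJT-2 replicate 1 and 0.66 with a replicate block. Without both libraries that stood apart it was 1.59 and *Cxcl13* was called (adjusted p = 0.0187, in a range from 0.0187 to 0.781 over the alternatives). Among the CC chemokines, *Ccl4*, which attracts monocytes and T cells, was at 3.15, 1.79, and 1.08 FPKM with vehicle and at 0, 0.98, and 0.36 with NJT-2. The groups did not overlap, but the spread was wide (log2 fold change -2.43, SE 1.38, adjusted p = 0.351 by edgeR), and *Ccl4* passed the filter through the vehicle group. The difference on the log2 scale was -3.82 without NJT-2 replicate 2 and -1.59 without vehicle replicate 1. Its neighbour and paralog *Ccl3*, named here after its values were seen, had 2.61, 2.94, and 2.52 FPKM with vehicle and 0.63, 8.72, and 0.82 with NJT-2. NJT-2 replicate 2 was 12.0 times the mean of the other NJT-2 libraries, and the log2 fold change went from 0.19 (SE 1.05, adjusted p = 0.918 by edgeR) to -2.13 without it (adjusted p = 0.124). The counting by the authors could have divided reads between such paralogs. *Ccl25*, a thymic and intestinal chemokine outside the rule for named genes, had 0.44, 0.77, and 0.81 FPKM with vehicle and 1.04, 1.45, and 0.84 with NJT-2. These groups did not overlap, and the log2 fold change of 0.60 did not pass the test (SE 0.44, adjusted p = 0.448 by edgeR).

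**Figure D2:**
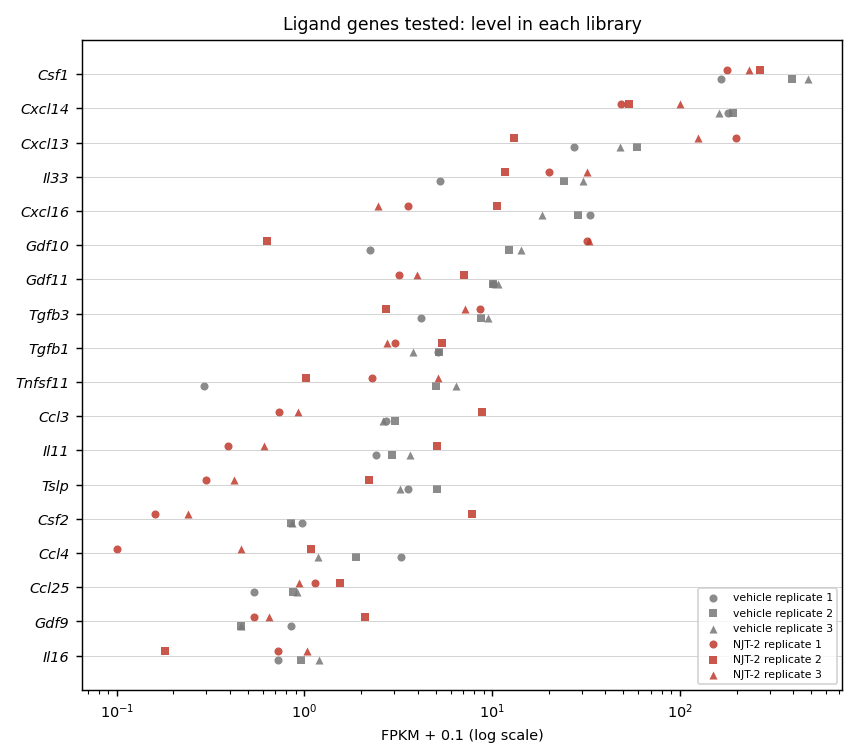
FPKM (plus 0.1, log axis) of the 18 tested ligand genes in each library, vehicle in grey and NJT-2 in red, with a marker shape for each replicate number and genes ordered by their mean. *Cxcl14* and *Cxcl16* separate by group, while for *Cxcl13*, *Gdf10*, *Il11*, and *Csf2* the red square, NJT-2 replicate 2, lies far from the other red markers.

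Among the colony-stimulating factors, *Csf1*, the growth factor of macrophages, had the highest mean FPKM of the ligands. Its values were 166.06, 395.44, and 479.63 with vehicle and 178.48, 266.91, and 232.10 with NJT-2. In FPKM, vehicle replicate 1 was the lowest of the 6 libraries, and the other vehicle libraries lay above every NJT-2 library. The fits scale counts by TMM, which gave vehicle replicate 1 the lowest factor (0.77), so its rank may differ on that scale. The log2 fold change was -0.70 (SE 0.38, adjusted p = 0.339 by edgeR), and -1.09 without both vehicle replicate 1 and NJT-2 replicate 2 (adjusted p = 0.0344, in a range from 0.0344 to 0.618 over the alternatives). *Csf2*, which encodes GM-CSF, had 0.87, 0.75, and 0.76 FPKM with vehicle and 0.06, 7.71, and 0.14 with NJT-2. NJT-2 replicate 2 was 77.1 times the mean of NJT-2 replicates 1 and 3, both of which lay below every vehicle library. For this gene the sign of the fold change depended on that library, with 1.57 for all libraries (SE 1.57, adjusted p = 0.571 by edgeR) and -3.16 without NJT-2 replicate 2. *Tslp*, an epithelial and stromal cytokine of the interleukin-7 type, was at 3.48, 5.00, and 3.12 FPKM with vehicle and at 0.20, 2.11, and 0.32 with NJT-2. All NJT-2 libraries lay below all vehicle libraries (log2 fold change -2.27, SE 0.97, adjusted p = 0.281 by edgeR). Without NJT-2 replicate 2, *Tslp* was called (log2 fold change -4.09, adjusted p = 0.0379), in a range from 0.00799 to 0.495 over the alternatives.

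The interleukin ligands varied within the groups. *Il33*, an alarmin of the interleukin-1 family that maintains immune cells of adipose tissue, had 5.15, 23.88, and 30.34 FPKM with vehicle and 19.92, 11.58, and 31.91 with NJT-2. Its fold change was near 0 (0.05, SE 0.54, adjusted p = 0.966 by edgeR) and changed sign when vehicle replicate 1 or NJT-2 replicate 3 was left out (-0.39 and -0.34). *Il11*, a cytokine that signals through gp130 and was named here after its values were seen, had 2.30, 2.84, and 3.55 FPKM with vehicle and 0.29, 4.95, and 0.51 with NJT-2. NJT-2 replicates 1 and 3 lay below every vehicle library and NJT-2 replicate 2 above them. Its log2 fold change of -0.69 (SE 1.03, adjusted p = 0.71 by edgeR) was -3.06 without NJT-2 replicate 2 (adjusted p = 0.0525). *Il16*, a ligand of Cd4, and *Gdf9*, an oocyte growth factor, averaged near the filter, with log2 fold changes of -0.84 and 0.73 (adjusted p = 0.538 and 0.641 by edgeR). Without NJT-2 replicate 2, their log2 fold changes were -0.34 and -0.35.

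Of the TGF-β superfamily, 5 of 9 ligand genes were tested. *Gdf11* (ENSMUSG00000025352, chr10:128882295-128891718), a close relative of myostatin, varied little among the vehicle libraries, with 10.05, 10.04, and 10.67 FPKM, and had 3.09, 7.00, and 3.88 with NJT-2. The NJT-2 values were all lower, with a log2 fold change of -1.32 (SE 0.43, 2.5-fold lower, unadjusted p = 0.0169, adjusted p = 0.208 by edgeR). Without both libraries that stood apart, *Gdf11* was called at -1.58 (adjusted p = 0.00802, in a range from 0.00802 to 0.475 over the alternatives). *Gdf10*, also known as BMP3b, was split within the NJT-2 group. It had 2.13, 12.18, and 14.15 FPKM with vehicle and 31.91, 0.53, and 32.79 with NJT-2, so NJT-2 replicates 1 and 3 were 61.0 times NJT-2 replicate 2 on average. With this spread the log2 fold change of 1.13 had an SE of 1.15 (adjusted p = 0.578 by edgeR). It was 1.71 without NJT-2 replicate 2 (adjusted p = 0.207), and 0.66 without vehicle replicate 1. Without both it was 1.29 and called (adjusted p = 0.00802, in a range up to 0.936 over the alternatives). *Tgfb1* and *Tgfb3*, ligands of the TGF-β receptor, had log2 fold changes of -0.57 and -0.41 (SEs 0.45 and 0.45, adjusted p = 0.48 and 0.606 by edgeR), and their groups overlapped. Without NJT-2 replicate 2, the fold changes were -1.0 and -0.07 on this scale. *Tnfsf11*, which encodes RANKL, the osteoclast differentiation factor, was the 1 tested ligand of 6 in the tumor necrosis factor superfamily. Its values of 0.19, 4.93, and 6.30 FPKM with vehicle and 2.2, 0.92, and 5.07 with NJT-2 overlapped, and in each group the library that stood apart was the lowest.

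Among the receptors, *Fas* (ENSMUSG00000024778, chr19:34290666-34327772), the death receptor for Fas ligand, had the smallest p of all members. Its FPKM was 29.71, 38.19, and 29.47 with vehicle and 6.48, 9.50, and 9.78 with NJT-2, or 32.5 ± 4.97 and 8.59 ± 1.83 (SD, n = 3 each). The groups were far apart and NJT-2 replicate 2 lay among the other NJT-2 libraries. With a log2 fold change of -2.11 (SE 0.35, 4.31-fold lower), the adjusted p was 0.0508 in edgeR, just above the limit. *Fas* was called by DESeq2 (adjusted p = 8.08e-06), with upper-quartile factors, with each of the other filters tried, and in limma on log2(FPKM + 1) values. A replicate block also gave a call, just under the limit (adjusted p = 0.0499 by edgeR). It was not called with DESeq2's size factors in edgeR (adjusted p = 0.0557), with depths implied by FPKM (0.0703), or in limma on log2(FPKM + 0.1) values (0.0604). Leaving out each library in turn, its log2 fold change stayed between -2.28 and -1.93 and its adjusted p was between 0.0525 and 0.30 (edgeR). The gene of its ligand, *Fasl*, had counts of 0, 0, and 4 with vehicle and 0, 32, and 0 with NJT-2, too few for the test. The other TNF receptor genes that were named by the rule overlapped between groups. *Tnfrsf12a*, which encodes Fn14, the receptor of TWEAK, had 21.29, 30.07, and 19.69 FPKM with vehicle and 15.87, 53.64, and 19.66 with NJT-2. The log2 fold change of 0.17 (adjusted p = 0.864 by edgeR) was -0.65 without NJT-2 replicate 2. *Tnfrsf21*, death receptor 6, had 0.22, 0.98, and 1.72 with vehicle and 1.65, 1.67, and 1.96 with NJT-2 (log2 fold change 0.83, or 0.39 without vehicle replicate 1, adjusted p = 0.445 by edgeR with all libraries).

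**Figure D3:**
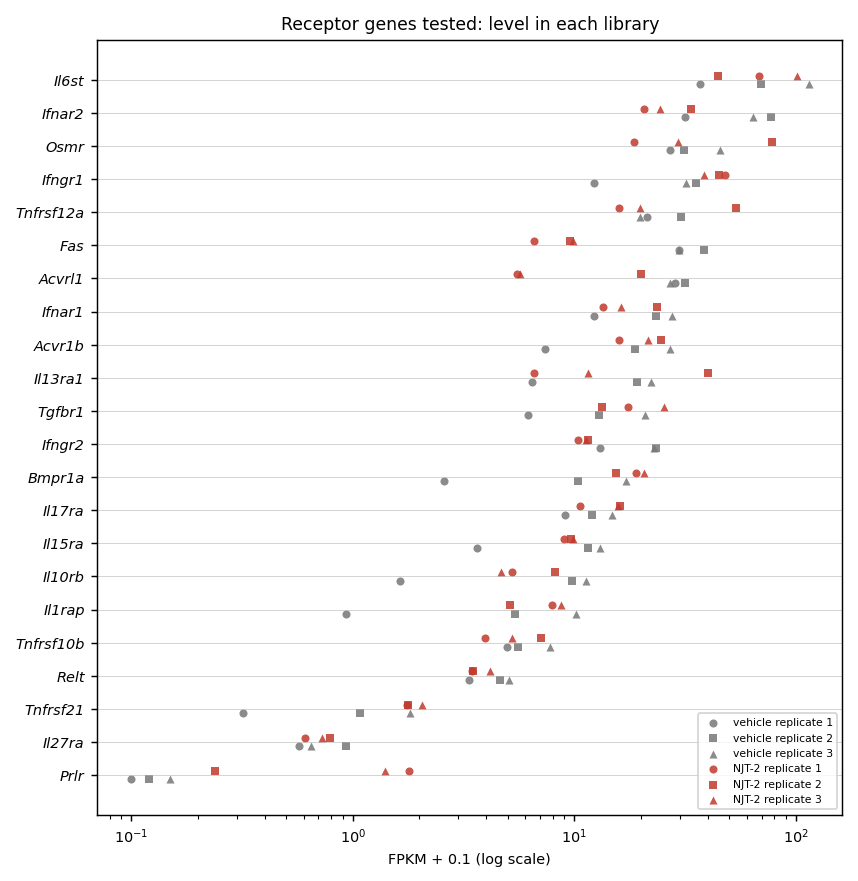
FPKM (plus 0.1, log axis) of the 22 tested receptor genes in each library, in the colors and shapes of the ligand plot. *Fas*, *Ifngr2*, *Acvrl1*, and *Prlr* separate by group, and the grey circle, vehicle replicate 1, is the lowest marker for 15 of the 22 genes.

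No interferon receptor gene was called by edgeR, and the fitted differences had both signs. Of the 5 tested genes of the interferon and interleukin-10 receptor family, 2 had an unadjusted p under 0.05 (*Ifnar2* and *Ifngr2*, both lower), and DESeq2 called 1 (*Ifnar2*), beside 17.8% and 7.8% of all tested genes. Interferons bind receptors of paired chains, *Ifnar1* and *Ifnar2* for type I and *Ifngr1* and *Ifngr2* for interferon-γ. On GRCm38, *Ifnar2* (chr16:91372783-91405589), *Il10rb* (chr16:91406164-91425834), *Ifnar1* (chr16:91485238-91507441), and *Ifngr2* (chr16:91547072-91565623) follow each other on the plus strand within 192841 bases, and 574 bases separate *Ifnar2* from *Il10rb*. *Ifnar2*, the signaling chain of the type I receptor, had 31.42, 77.37, and 63.80 FPKM with vehicle and 20.50, 33.56, and 24.27 with NJT-2. Only NJT-2 replicate 2, at 33.56, reached the range of vehicle, through vehicle replicate 1, and on TMM-scaled counts the groups did not overlap. Its log2 fold change was -1.23 (SE 0.36, 2.35-fold lower, unadjusted p = 0.00965, adjusted p = 0.175 by edgeR), and DESeq2 called it (adjusted p = 0.035, in a range from 0.007 to 0.443 over the alternatives). *Ifngr2* had 12.90, 23.19, and 22.76 FPKM with vehicle and 10.30, 11.42, and 11.16 with NJT-2. The NJT-2 values were close to each other and below all vehicle values (log2 fold change -0.97, SE 0.28, 1.96-fold lower, unadjusted p = 0.00876, adjusted p = 0.169 by edgeR). The adjusted p of *Ifngr2* in DESeq2 was 0.022, in a range from 0.0115 to 0.459 over the alternatives, but the DESeq2 fold change of -0.95 on the log2 scale was under the limit. Without both libraries that stood apart, *Ifngr2* was called at -1.10 (adjusted p = 0.0115 by edgeR).

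*Ifngr1* (chr10:19591949-19610229), the other chain of the interferon-γ receptor, had 12.14, 35.34, and 31.98 FPKM with vehicle and 47.87, 44.90, and 38.28 with NJT-2, without overlap. The log2 fold change of 0.64 did not pass the test (SE 0.34, adjusted p = 0.328 by edgeR), and was 0.38 without vehicle replicate 1. The paired chain *Ifnar1* and the shared interleukin-10 family chain *Il10rb* overlapped between groups, with log2 fold changes of -0.34 and -0.33 (SEs 0.35 and 0.58, adjusted p = 0.582 and 0.752 by edgeR). *Il10rb* had 1.53 FPKM in vehicle replicate 1 and 9.67 and 11.23 in the other vehicle libraries, against 5.16, 8.06, and 4.56 with NJT-2. Without both libraries that stood apart, it was called lower at a log2 fold change of -1.11 (adjusted p = 0.019, in a range from 0.019 to 0.997 over the alternatives).

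**Figure D4:**
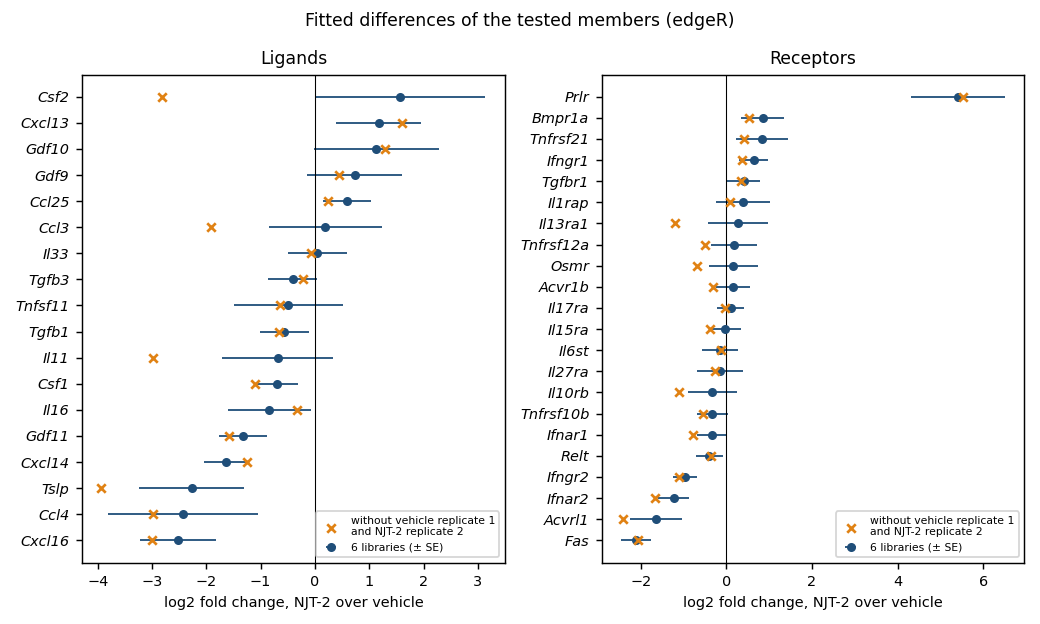
Fitted log2 fold changes (NJT-2 over vehicle, edgeR) of the 18 ligand genes at the left and the 22 receptor genes at the right, as points with ± 1 standard error for all 6 libraries, and as crosses without vehicle replicate 1 and NJT-2 replicate 2. For *Csf2* the cross lies at -2.82 and the point at 1.57, while for *Fas* both lie near -2.1.

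The gp130 family genes *Il6st* and *Osmr* were among the 6 receptor genes of highest mean FPKM. *Il6st*, which encodes gp130, the shared chain of the interleukin-6 family, had 36.83, 69.65, and 113.93 FPKM with vehicle and 68.23, 44.38, and 100.75 with NJT-2. The groups spanned the same range, and the log2 fold change of -0.15 (SE 0.42, adjusted p = 0.844 by edgeR) became 0.14 without vehicle replicate 3 and 0.07 without NJT-2 replicate 2. *Osmr*, its partner in the oncostatin M receptor, had 26.93, 31.00, and 45.36 with vehicle and 18.43, 78.27, and 29.18 with NJT-2. NJT-2 replicate 2 was the highest library, and without it the log2 fold change went from 0.16 (SE 0.57, adjusted p = 0.879 by edgeR) to -0.74. *Il13ra1*, a chain of the interleukin-4 and interleukin-13 receptors, was also highest there, with 6.37, 19.10, and 22.20 with vehicle and 6.51, 40.11, and 11.47 with NJT-2. Its log2 fold change was 0.27 (SE 0.70, adjusted p = 0.835 by edgeR), -0.02 without vehicle replicate 1, and -0.94 without NJT-2 replicate 2. *Il1rap*, the accessory chain of the interleukin-1 and interleukin-33 receptors, was at 0.83 FPKM in vehicle replicate 1 and between 5.00 and 10.12 in the other 5 libraries.

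Of the TGF-β receptor family, 4 of 5 genes were tested. *Acvrl1* (ENSMUSG00000000530, chr15:101128522-101145336), the type I receptor ALK1, best known from endothelial cells, had 28.30, 31.47, and 26.99 FPKM with vehicle and 5.41, 19.99, and 5.57 with NJT-2. All NJT-2 libraries were lower, NJT-2 replicate 2 by the least. The log2 fold change of *Acvrl1* was -1.65 (SE 0.60, 3.14-fold lower, unadjusted p = 0.0268, adjusted p = 0.236 by edgeR), and the gene was called without NJT-2 replicate 2 (-2.65, adjusted p = 0.0342, in a range from 0.00235 to 0.482 over the alternatives). The summed FPKM of the 3 endothelial marker genes analysed (*Pecam1*, *Tek*, and *Vwf*) was at most 2.46 in any library. *Bmpr1a*, a type I receptor for bone morphogenetic proteins, had 2.48, 10.34, and 16.97 FPKM with vehicle and 18.90, 15.29, and 20.57 with NJT-2, with overlap (log2 fold change 0.85, SE 0.50, adjusted p = 0.369 by edgeR). It was 0.41 without vehicle replicate 1. *Tgfbr1*, the type I receptor for *Tgfb1* and *Tgfb3*, was the member that the pair list joined to tested ligands. That list leaves out some tested pairs, such as *Il11* and the gp130 gene *Il6st*. The log2 fold change of *Tgfbr1* was 0.40 (SE 0.39, adjusted p = 0.56 by edgeR), the other sign from both ligands, with none of the 3 past the test. Leaving out 1 library moved it to between 0.14 (without vehicle replicate 1) and 0.73 (without vehicle replicate 3), and it was 0.16 without NJT-2 replicate 3. The tested receptor genes not yet named are *Relt* and *Tnfrsf10b* of the TNF receptor family, *Acvr1b*, an activin receptor, *Il15ra*, *Il17ra*, and *Il27ra*. Their groups overlapped in FPKM, with log2 fold changes from -0.40 for *Relt* to 0.16 for *Acvr1b* and adjusted p-values from 0.48 to 0.956 (edgeR).

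*Prlr* (ENSMUSG00000005268, chr15:10177238-10349180), the prolactin receptor, which signals through Jak2 and Stat5, had the largest fitted difference of the 40 tested members. Its counts were 4, 26, and 51 with vehicle against 1849, 153, and 1400 with NJT-2, or 0, 0.02, and 0.05 FPKM against 1.70, 0.14, and 1.30. *Prlr* passed the filter through the NJT-2 group only, and NJT-2 replicate 2 lay between the vehicle libraries and the other NJT-2 libraries. Its log2 fold change was 5.41 (SE 1.10, 42.6-fold, unadjusted p = 0.00136, adjusted p = 0.0876 by edgeR). DESeq2 called *Prlr* (adjusted p = 3.99e-07), as did edgeR without NJT-2 replicate 2 (log2 fold change 5.91, adjusted p = 0.0342) and with a replicate block (5.04, adjusted p = 0.022). The range of the adjusted p over the alternatives was from 3.99e-07 to 0.40.

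NJT-2 replicate 2 stood apart from the other NJT-2 libraries for 16 of the 40 tested cytokine and receptor genes. Over a 2-fold difference from the mean of NJT-2 replicates 1 and 3 on the log2(FPKM + 1) scale, 10 of the 40 members (25.0%) were higher and 6 (15.0%) were lower in it, where 9.58% and 12.1% of all tested genes were. These values describe a single library and were given no test. The ligands above were *Csf2*, *Ccl3*, *Il11*, *Cxcl16*, *Tslp*, and *Gdf9*, by up to 2.99 on that scale, and the ligands below were *Gdf10*, *Cxcl13*, *Tgfb3*, *Tnfsf11*, and *Il33*, with differences from -4.45 to -1.06. The receptors above were *Il13ra1*, *Osmr*, *Acvrl1*, and *Tnfrsf12a*, and *Prlr* was below. So of 18 ligand genes 11 were apart in this library, and of 22 receptor genes 5. On the same FPKM scale, vehicle replicate 1 was more than 2-fold below the mean of vehicle replicates 2 and 3 for 35.0% of the members. The share of all genes was 27.0%, and the members were 4 of 18 ligand genes and 10 of 22 receptor genes. These counts depend on the scale. Vehicle replicate 1 was the lowest library for 15 of the 22 receptor genes in FPKM and for 9 on TMM-scaled counts.

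**Figure D5:**
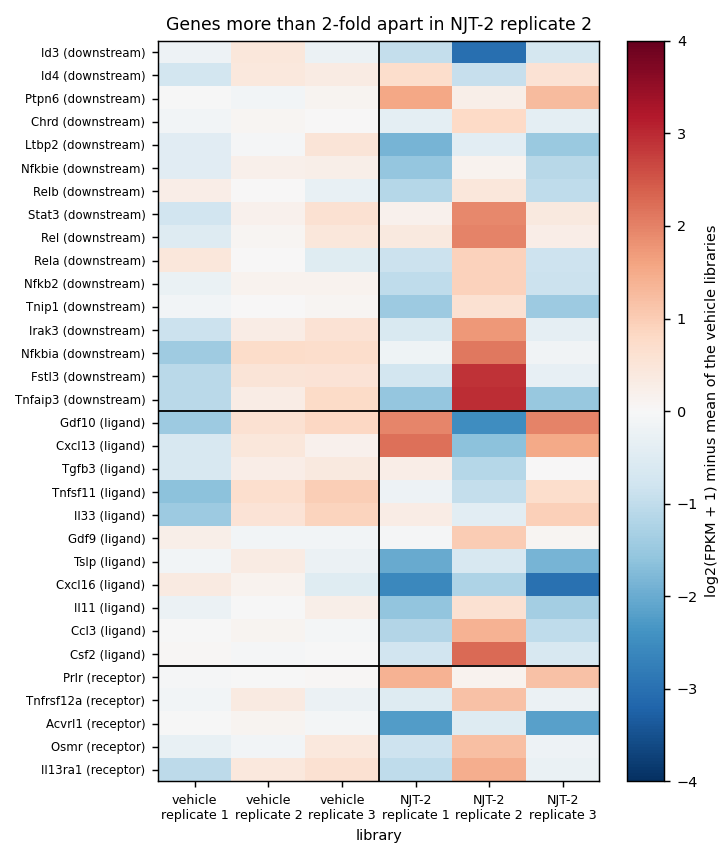
Genes more than 2-fold apart in NJT-2 replicate 2 from the mean of NJT-2 replicates 1 and 3, as log2(FPKM + 1) minus the mean of the vehicle libraries (color), for 16 downstream signaling genes, 11 ligand genes, and 5 receptor genes in the 6 libraries. The NF-κB genes *Tnfaip3* and *Nfkbia* and the ligands *Csf2* and *Ccl3* are red in the column of NJT-2 replicate 2, and *Gdf10* and *Cxcl13* are blue in it and red in the columns of NJT-2 replicates 1 and 3.

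The genes that act below these receptors were taken from a list of 88 for the JAK-STAT, NF-κB, and SMAD pathways, of which 40 were analysed and all 40 tested. With NJT-2, 26 were higher and 14 lower (median log2 fold change 0.26), and none was called by edgeR, with 3 at an unadjusted p under 0.05, against the 17.8% of all tested genes. The 3 were *Ptpn6*, a phosphatase that restrains cytokine receptors (log2 fold change 2.77, adjusted p = 0.183), the latent TGF-β binding protein gene *Ltbp2* (-1.32, adjusted p = 0.236), and *Id3*, a target of bone morphogenetic proteins (-1.52, adjusted p = 0.246, all by edgeR). Of these, DESeq2 called *Ptpn6*, which passed the filter through the NJT-2 group only (0.18, 0.11, and 0.29 FPKM with vehicle and 2.45, 0.40, and 1.84 with NJT-2). It was the 1 gene of the 40 that DESeq2 called, against 7.8% of all tested genes, and *Fstl3* got no adjusted p from DESeq2. Without both vehicle replicate 1 and NJT-2 replicate 2, the median of the 40 was -0.165, against 0.26 with all libraries. In that setting 10 were called, 9 lower and 1 higher, against 13.0% of all genes. The median by pathway went from 0.286 to -0.596 (NF-κB), 0.0948 to -0.479 (SMAD), and 0.263 to 0.0744 (JAK-STAT). By library, 13 of the 40 were more than 2-fold higher in NJT-2 replicate 2 than in the other NJT-2 libraries, and 3 were lower. Of all tested genes, 9.58% were higher and 12.1% lower in it by the same limit. *Tnfaip3*, which encodes the NF-κB inhibitor A20 and is itself induced by NF-κB, had 2.92, 8.97, and 13.06 FPKM with vehicle and 1.83, 61.79, and 1.85 with NJT-2. *Nfkbia*, the inhibitor IκBα, had 16.43, 76.77, and 76.53 with vehicle and 41.17, 201.98, and 41.87 with NJT-2. *Stat3*, the transcription factor below gp130, had 11.09, 22.26, and 30.72 with vehicle and 22.35, 77.79, and 26.36 with NJT-2. For these genes NJT-2 replicate 2 was the highest library, and NJT-2 replicates 1 and 3 lay close to each other.

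The remaining 35 members, 19 ligands and 16 receptors, were under the filter. Their highest count in any library was 211 (*Cd40*), 8 had no count in any vehicle library, 6 had none in any NJT-2 library, and *Il5ra* had none at all. The groups did not overlap for 5 of the 35, near the 12.3% of all genes under the filter, and these 5 are named here after their values were seen. *Bmp4*, a bone morphogenetic protein that commits precursors to the adipocyte lineage, had counts of 69, 126, and 202 with vehicle and 35, 37, and 21 with NJT-2. The erythropoietin receptor gene *Epor* had 8, 19, and 15 with vehicle and 41, 85, and 32 with NJT-2. *Tnf*, the founding member of its family and an inducer of NF-κB, had 0, 30, and 15 with vehicle and 42, 182, and 48 with NJT-2, highest in NJT-2 replicate 2. *Tnfrsf13b*, a receptor of B cells, had 0, 0, and 0 with vehicle and 24, 4, and 32 with NJT-2. *Cd4*, a T cell coreceptor, had 0, 8, and 8 against 24, 15, and 17. When every gene with any count was fitted, the adjusted p of these 5 ran from 0.233 for *Tnfrsf13b* to 0.535 for *Cd4* (edgeR). The type 2 cytokine gene *Il4* and the T cell ligand genes *Fasl*, *Lta*, and *Ltb* had at most 47 counts in any library.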

How the data were processed

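RNA-seq of 3 vehicle and 3 NJT-2 libraries was analysed, with groups from the sample labels. According to the submitters' processing notes, cutadapt 1.9, HISAT2 2.2.1, and StringTie 2.1.6 were used with the build GRCm38. The authors deposited 1 table with raw read counts per gene, which were not normalized. The same table holds FPKM values, which the authors scaled by gene length and library total. The libraries mark strand (dUTP), and the strand setting of the counting and the annotation release are not given in the sources used here. The part analysed here holds 4864 genes with values and 1 line without, which was left out, and 0 columns of other samples.

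Members, roles, and lists were chosen with earlier results of these data known. The quasi-likelihood test of edgeR 4.0.16 (TMM, R 4.3.3) was run on genes whose FPKM averaged 0.5 or more, with no covariate, and called genes passed 0.05 after Benjamini-Hochberg adjustment and 1 on the log2 scale. Named members were those called, those with an unadjusted p under 0.05 and no overlap in FPKM, and listed pairs of tested ligand and receptor. The 8 largest changes, 6 highest levels, and 4 widest spreads within a group were also named per side. On simulated counts over 3705 genes, 72 of 200 changed genes were recovered with 2 false calls at the observed variation. Alternatives were DESeq2 1.42.0, limma 3.58.1 on log2(FPKM + 1) and log2(FPKM + 0.1), upper-quartile factors, depths implied by FPKM, other filters, a replicate block, and leaving out libraries. No pair of libraries within a group agreed within sampling noise.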

Additional observations from a re-analysis of the deposited data

How the results depend on the processing

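The numbers of calls moved with the threshold, the tool, and the libraries. The cause was not tested. The 35 members under the filter had at most 211 counts in any library. DESeq2 called 5 members (2 ligands, 3 receptors), 289 of all tested genes against 26 in edgeR, and 1 downstream gene. Upper-quartile factors, no filter, stricter filters (FPKM averaging 1 or more, or 10 counts everywhere), and limma on log2(FPKM + 1) each called 1 member, the receptor *Fas*. At an unadjusted p under 0.05 with the same fold limit, 8 members (4 ligands, 4 receptors), 3 downstream genes, and 562 of all genes passed. Leaving out each library in turn gave 0 to 3 members, 0 to 1 ligands, 0 to 2 receptors, and 0 to 75 of all genes, the highest without NJT-2 replicate 2 and 0 genes without vehicle replicate 2. Without vehicle replicate 1 and NJT-2 replicate 2, chosen after seeing the data, 15 members (8 ligands, 7 receptors), 10 downstream genes, and 482 of all genes were called. The medians were then -0.879 for ligands, -0.373 for receptors, and -0.165 for downstream genes, and 9 of the 10 downstream genes called were lower.

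The median of the ligands was -0.594 with upper-quartile factors, -0.417 with depths implied by FPKM, -0.456 with no filter, -0.603 with 10 counts everywhere, and -0.295 and -0.459 in limma with a pseudocount of 1 and 0.1. Leaving out each library in turn, it ran from -0.947 to -0.383, and that of the receptors from -0.351 without NJT-2 replicate 2 to 0.148 without NJT-2 replicate 1.

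Libraries of the same replicate number did not deviate together (correlations of 0.179, 0.0325, and -0.207), so the numbers were not taken to pair the samples. With a replicate block, 3 members (1 ligand, *Cxcl16*, and 2 receptors, *Fas* and *Prlr*) and 57 of all genes were called and the ligand median was -0.832. With the block, the log2 fold changes of *Csf2* (-1.49), *Il13ra1* (-0.15), *Osmr* (-0.162), and *Tnfrsf12a* (-0.0403) changed sign.

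Of 472 values of the 28 named members under the alternatives, 417 kept direction and side of the threshold, 28 kept direction and passed it, and 27 changed sign, and 19 members never changed sign. In limma with a pseudocount of 0.1 the sign changed for *Csf2* (-0.414), *Il10rb* (0.0496), *Il6st* (0.0205), and *Tnfsf11* (0.126), with 1 for *Il6st* (0.0192), and for *Il33* with upper-quartile factors (-0.0329) and with no filter (-0.0144). Without both libraries that stood apart it changed for *Csf2* (-2.82), *Il13ra1* (-1.21), *Il33* (-0.0689), *Osmr* (-0.684), and *Tnfrsf12a* (-0.494). In the fits that left out 1 library, the sign of these named members changed: *Csf2* (-3.16 to 2.15), *Il13ra1* (-0.936 to 0.691), *Il1rap* (-0.127 to 1.08), *Il33* (-0.389 to 0.37), *Il6st* (-0.456 to 0.141), *Osmr* (-0.74 to 0.533), and *Tnfrsf12a* (-0.653 to 0.489). Outside the rule for named members, it also changed for *Ccl3* (-2.13 to 0.691) and *Gdf9* (-0.35 to 1.5), among others.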
